A study of Rattus norvegicus with 7 samples.

Results

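Reactive glia genes are transcripts that astrocytes and other glial cells switch on after injury or inflammation, and 8 of them were followed here: Lcn2, C3, Serpina3n, Steap4, S1pr3, Cd44, Hspb1 and Emp1. They were taken by gene symbol from a list drawn up with earlier results of these data known. Of the 8, 7 had a row among the 32852 genes of the deposited table, each under 1 Ensembl identifier, and all 7 passed the minimum mean normalised count of 10. The level of Serpina3n was not analysed here, and only its promoter was read.

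The cells were oligodendrocyte progenitor cells from the brains of wild-type rats at postnatal day 7, plated at about 40000 cells a well in plates of 12 wells and transfected with Lipofectamine RNAiMAX. One group of 3 libraries received an siRNA directed at RNLTR12-int, the internal part of a rat endogenous retrovirus, and the other group of 4 libraries received a control siRNA. Both groups went into differentiating medium at transfection and stayed in it for 4 to 5 days. The labels call the samples biological replicates but name no animal, culture or day, so p-values reflect only how far these samples spread, and part of that may be technical. No value of RNLTR12-int was analysed here, and the knockdown therefore has no check.

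Several signalling routes drive the reactive state. Cytokines of the interleukin-6 family, such as Lif, act through gp130 (Il6st) and the transcription factor Stat3, and interleukin-1 and tumour necrosis factor act through NF-kB. In mice, one set of reactive genes is shared by most injuries, another (called A1, with C3 as its best known member) follows inflammatory stimuli and a further one (called A2, with Emp1 among its members) was described after ischaemia. Lcn2, Steap4, S1pr3, Cd44 and Hspb1 belong to the shared set.

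Library totals ran from 22523873 to 61803693 recovered reads. Markers of other glia divided the libraries into 2 sets that cut across the siRNA groups. The mean level of 14 astrocyte markers, on the log2(normalised count + 1) scale, was 13.85 in siRNLTR12-int replicate 1 and 13.75 and 13.60 in control replicates 1 and 2, against 12.21 and 12.19 in siRNLTR12-int replicates 2 and 3 and 12.24 and 12.18 in control replicates 3 and 4. The split was the same with Gfap, itself a gene of reactive astrocytes, left out of the list. The 3 libraries high in astrocyte markers were also highest in microglia markers (mean level 9.26 in siRNLTR12-int replicate 1 and 9.70 and 8.23 in control replicates 1 and 2, against 6.27 to 6.97 in the other 4). Oligodendrocyte lineage markers were present throughout, with a mean level of 12.74 to 12.97 in siRNLTR12-int libraries and 13.40 to 14.97 in control libraries, so the labelled cell type was found together with other glia. In such bulk samples fewer cells of a type and less RNA per cell cannot be told apart.

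The stretches of 250 bases before the RefSeq start of 4 members are shown first, because these genes carry the patterns described below: Lcn2 and C3 were high in the libraries high in astrocyte markers, Emp1 was low in them, and Hspb1 did not overlap between the siRNA groups. They come from RefSeq (rat build GRCr8), 5′ to 3′ on the strand of the gene, and capitals mark matches to the motifs searched. Cd44 did not overlap between the siRNA groups either, but its window, not shown, held no match to these motifs.
Lcn2 (chr3:36081781-36082030, minus strand): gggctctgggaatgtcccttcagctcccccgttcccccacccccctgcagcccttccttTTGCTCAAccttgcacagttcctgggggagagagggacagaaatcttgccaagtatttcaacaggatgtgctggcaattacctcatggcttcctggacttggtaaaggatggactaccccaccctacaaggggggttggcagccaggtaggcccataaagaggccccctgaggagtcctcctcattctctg
C3 (chr9:2201340-2201589, minus strand): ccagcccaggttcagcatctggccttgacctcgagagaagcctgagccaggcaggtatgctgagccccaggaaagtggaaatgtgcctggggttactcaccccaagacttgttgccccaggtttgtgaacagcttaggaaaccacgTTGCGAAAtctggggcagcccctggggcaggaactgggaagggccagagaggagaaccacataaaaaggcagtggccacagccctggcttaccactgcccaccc
Hspb1 (chr12:26432302-26432551, minus strand): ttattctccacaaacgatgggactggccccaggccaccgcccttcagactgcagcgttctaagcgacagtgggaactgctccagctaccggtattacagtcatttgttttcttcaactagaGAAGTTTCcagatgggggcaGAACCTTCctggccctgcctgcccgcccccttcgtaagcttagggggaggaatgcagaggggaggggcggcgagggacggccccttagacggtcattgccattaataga
Emp1 (chr4:169943980-169944229, plus strand): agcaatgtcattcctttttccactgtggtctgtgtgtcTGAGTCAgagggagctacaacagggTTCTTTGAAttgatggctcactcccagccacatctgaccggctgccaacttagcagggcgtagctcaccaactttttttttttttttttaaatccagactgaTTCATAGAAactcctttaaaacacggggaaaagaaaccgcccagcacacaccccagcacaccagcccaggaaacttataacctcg

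The letters searched on both strands were TTCNNNGAA for STAT factors, a consensus of NF-kB, TTGCNNAA or TTGCNNCAA for C/EBP factors, TGAGTCA for AP-1 and GAANNTTC or TTCNNGAA for heat shock factors. The C/EBP letters stood in Lcn2 (TTGCTCAA), C3 and Steap4 (both TTGCGAAA), 3 of the 8 member promoters against 10.8% of all 33469 promoters of that length. STAT letters were found in 3 members, Steap4, Emp1 and Serpina3n (7.67% of all promoters), and heat shock letters in Hspb1, Steap4 and Serpina3n (13.5%). Hspb1 held 2 heat shock matches, GAAGTTTC and GAACCTTC. The NF-kB letters occurred in Steap4 alone (1.30% of all promoters), where they overlap a heat shock match, and the AP-1 letters in Emp1 alone (4.05%). None of these letters stood in the windows of Cd44 and S1pr3. A match is a run of letters and no measured binding.

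The comparison of the siRNA groups addresses how transcripts respond to the siRNA against RNLTR12-int. All 7 measured members had a higher mean log2 level after the siRNA against RNLTR12-int than after the control siRNA (51% of all 18225 genes tested did), with a median log2 difference of 0.73 against 0.01 over all genes tested. Of the 7, Cd44 alone passed an adjusted test over all 7 libraries, with a log2 change of 0.86 in the authors' deposited table. With limma, on log2(normalised count + 1) with Benjamini-Hochberg adjustment and a threshold of 0.05, 0 members and 0 of 18225 genes passed. Without adjustment, limma put 606 genes higher and 543 lower at p under 0.05. The edgeR test on recovered reads also called 0 genes, and by its unadjusted p 580 were higher and 585 lower. By an adjusted p under 0.05 in the authors' deposited table, whatever the size of the change, 0.384% of 18747 genes rose (72) and 0.368% fell (69). With array weights limma passed 1 member, Cd44, where 2.5% of all genes passed as higher.

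**Figure D1:**
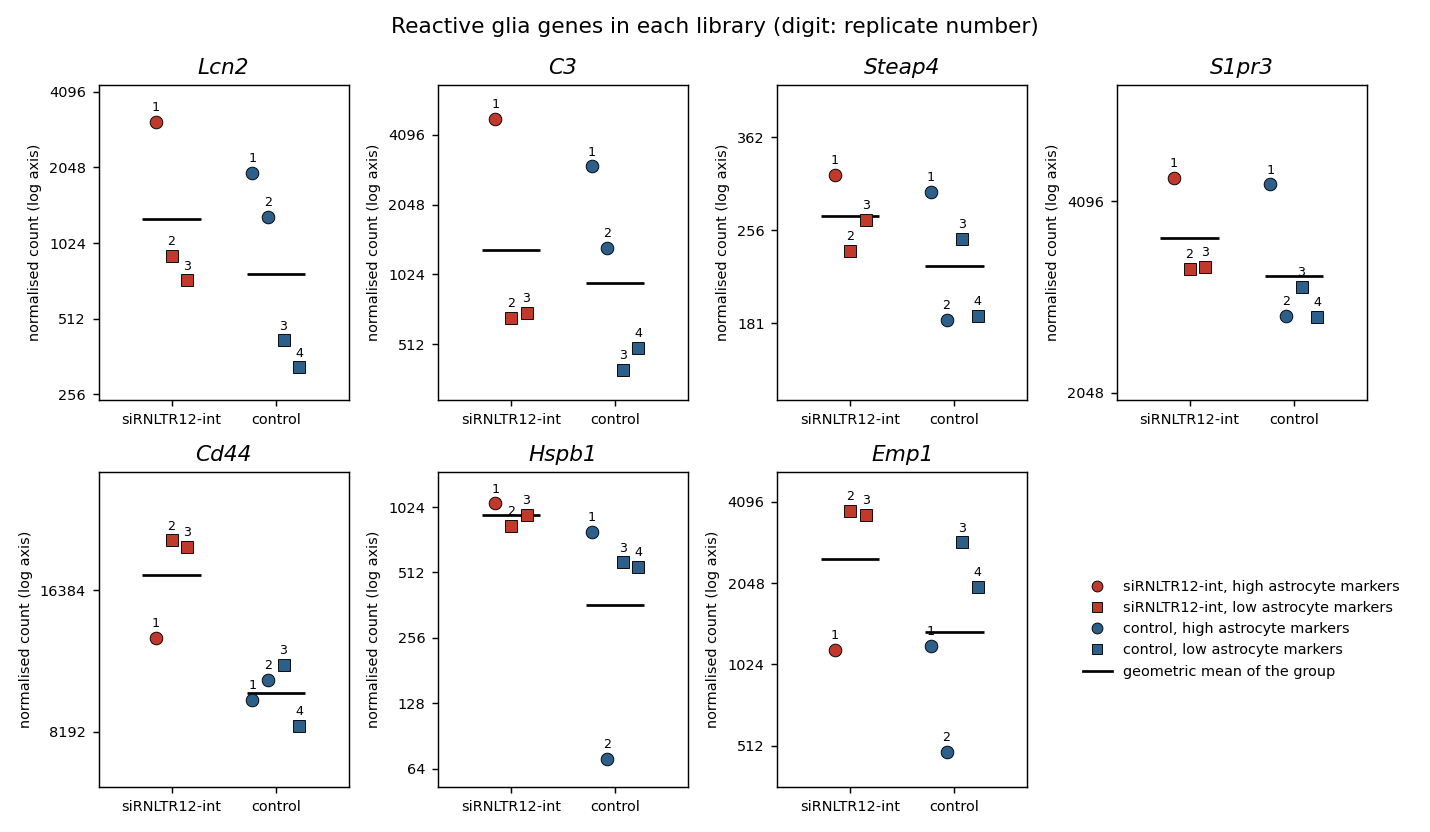
Normalised count of each measured member in each library (log axis), siRNLTR12-int left and control right, with circles for the 3 libraries high in astrocyte markers, squares for the other 4, digits for replicate numbers and lines for geometric means. The groups do not overlap in Cd44 and Hspb1; in Lcn2 and C3 the circles lie above the squares, and in Emp1 below them.

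The secreted members were Lcn2 and C3. Lcn2 encodes lipocalin 2, a protein that binds iron-carrying siderophores and is among the most strongly induced genes of reactive astrocytes. It had 3116, 914 and 728 normalised counts in siRNLTR12-int replicates 1 to 3, against 1946, 1306, 419.7 and 328 in control replicates 1 to 4. The groups overlapped, and siRNLTR12-int replicate 1 and control replicates 1 and 2, the libraries high in astrocyte markers, were the 3 highest. The log2 difference over all 7 libraries was 0.73 (SE 0.76, limma adjusted p = 0.970), and it was 0.08 without siRNLTR12-int replicate 1.

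C3 encodes the central component of complement, which C3 convertases cleave to tag targets and to release a peptide that binds C3ar1. Its normalised counts were 4784, 665 and 698 in siRNLTR12-int replicates 1 to 3, against 2988, 1334, 398 and 495 in control replicates 1 to 4. This is the same order of sets as in Lcn2, with the 3 libraries high in astrocyte markers above the other 4. Of all genes tested 18.6% showed that order. The log2 difference was 0.47 (SE 0.93, limma adjusted p = 0.987), and without siRNLTR12-int replicate 1 it turned to -0.47.

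Of the membrane proteins, Cd44 stood apart. It encodes the hyaluronan receptor, found on astrocytes and on astrocyte-restricted precursor cells. Cd44 had 12964, 20904 and 20281 normalised counts in siRNLTR12-int replicates 1 to 3, against 9570.4, 10571, 11337 and 8434 in control replicates 1 to 4. Every siRNLTR12-int library lay above every control library, and the ratio of the geometric means was 1.78. In the authors' deposited table Cd44 rose (log2 0.86, SE 0.23, adjusted p = 0.0300), below the absolute change of 1 at which that table marks a gene as regulated. With limma the log2 difference was 0.83 with a 95% interval of 0.37 to 1.29 (unadjusted p = 0.00353, adjusted p = 0.647), and the two-sided exact permutation p was 0.0286, the smallest that the 35 splits of 7 libraries allow. Leaving out each library in turn kept the log2 difference of Cd44 between 0.71 and 1.05, with unadjusted limma p of 0.000222 to 0.0171.

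Steap4, a metalloreductase of iron and copper, had 314, 237 and 266 normalised counts in siRNLTR12-int replicates 1 to 3, against 296, 184, 248 and 186 in control replicates 1 to 4. S1pr3, a receptor for sphingosine 1-phosphate, had 4462, 3204 and 3226 in siRNLTR12-int libraries, against 4355, 2704, 3002 and 2691 in controls. Both varied little, by 1.71 and 1.66 times between their lowest and highest library, and replicate 1 was the highest library of each group in both genes. Their log2 differences were 0.27 (95% interval -0.24 to 0.78) and 0.20 (95% interval -0.29 to 0.69), with limma adjusted p of 0.935 and 0.968. Leaving out 1 library gave 0.16 to 0.41 for Steap4, the lowest when siRNLTR12-int replicate 1 was left out, and 0.18 when control replicate 2 was. For S1pr3 the range was 0.04 to 0.36, the lowest when siRNLTR12-int replicate 1 was left out and the highest when control replicate 1 was. It was 0.13 when control replicate 2 or 4 was left out.

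Emp1, a tetraspan membrane protein of the same family as the myelin protein Pmp22, ran the other way across the sets. It had 1160.2, 3776 and 3649 normalised counts in siRNLTR12-int replicates 1 to 3, against 1199.9, 488, 2893 and 1987 in control replicates 1 to 4. The 3 libraries high in astrocyte markers were its lowest 3, an order found in 17.1% of all genes tested. The log2 difference of 0.89 (SE 0.67, limma adjusted p = 0.934) was 0.40 without control replicate 2 and 1.45 without siRNLTR12-int replicate 1.

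Hspb1, a small heat shock protein that binds unfolded proteins and actin, was the intracellular member. It had 1065, 842 and 945 normalised counts in siRNLTR12-int replicates 1 to 3, against 787, 71.1, 569.7 and 545 in control replicates 1 to 4. The groups did not overlap, and control replicate 2, with 98 reads, lay far below the rest. Hspb1 thus joined Cd44 as the 2 of 7 members with all siRNLTR12-int libraries above all controls, an order found in 4.09% of all genes tested. No member had all siRNLTR12-int libraries below all controls (3.59% of all genes tested). The log2 difference was 1.38 (SE 0.78, limma adjusted p = 0.878, exact permutation p = 0.0857) and was 0.60 without control replicate 2 (unadjusted limma p = 0.0162, adjusted p = 0.841). Control replicate 2 was also the lowest library for Emp1 and Steap4 and the highest in the summed oligodendrocyte lineage markers, with a sum of 1055846 normalised counts where control replicates 1, 3 and 4 had 265159 to 455585. The part of that mixture in the value of Hspb1 was not tested.

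Within the 2 sets of libraries, more members separated by siRNA than in the pooled comparison. More of all genes tested also lay above the controls there than in the pooled comparison (4.09%). Smaller groups separate more easily by chance, and the part of chance in these shares was not tested. Among the 4 libraries low in astrocyte markers, both siRNLTR12-int libraries lay above both controls in 6 of 7 members (31.2% of all genes tested), Steap4 being the exception. Among the 3 libraries high in these markers, the single siRNLTR12-int library lay above both controls in 6 of 7 (33.3% of all genes tested), Emp1 being the exception. Lcn2, C3, S1pr3, Cd44 and Hspb1 did so in both sets, 5 of 7 against 14.5% of all genes tested.

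In a limma fit of the 4 libraries low in astrocyte markers, 4 of the 7 members passed, all higher, where 4.78% of 17947 genes passed in that direction. Lcn2 differed by 1.13 (adjusted p = 0.0133), Cd44 by 1.07 (adjusted p = 0.00992), Hspb1 by 0.68 (adjusted p = 0.0161) and C3 by 0.62 (adjusted p = 0.0396) on the log2 scale with limma. Emp1 (0.63), Steap4 (0.22) and S1pr3 (0.18) did not pass there, with limma adjusted p of 0.0642, 0.507 and 0.241. With the same split as a block over all 7 libraries, 0 members passed. In that limma fit Lcn2 differed by 1.07 (adjusted p = 0.190), C3 by 0.87 (adjusted p = 0.266), Cd44 by 0.79 (adjusted p = 0.198) and Hspb1 by 1.27 (adjusted p = 0.506). The set was defined from the data and holds 2 libraries a group, among them the closest pair of each group, with a median chi-square per gene of 1.29 for siRNLTR12-int replicates 2 and 3 and 2.76 for control replicates 3 and 4, against 0.455 from sampling noise alone. In these 4 libraries the summed astrocyte markers were 179461 and 175431 normalised counts in siRNLTR12-int replicates 2 and 3 and 181031 and 193568 in control replicates 3 and 4, while the oligodendrocyte lineage sums were 273064 and 254477 against 371204 and 455585. The part of that second gap in these values was not tested.

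With the astrocyte marker level as a covariate over all 7 libraries, the limma log2 differences of Lcn2 and C3 were 0.98 and 0.78 (unadjusted p = 0.000325 and 0.0109, adjusted p = 0.163 and 0.211). Cd44 differed by 0.80 in that fit (unadjusted p = 0.00191, adjusted p = 0.164). No member passed the adjusted threshold, and 9.05% of all genes were higher there at an unadjusted p under 0.05. With the microglia marker level as the covariate, Cd44, Lcn2 and C3 were again the 3 members under that unadjusted p (9.68% of all genes were higher), at limma adjusted p of 0.121, 0.140 and 0.0522.

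**Figure D2:**
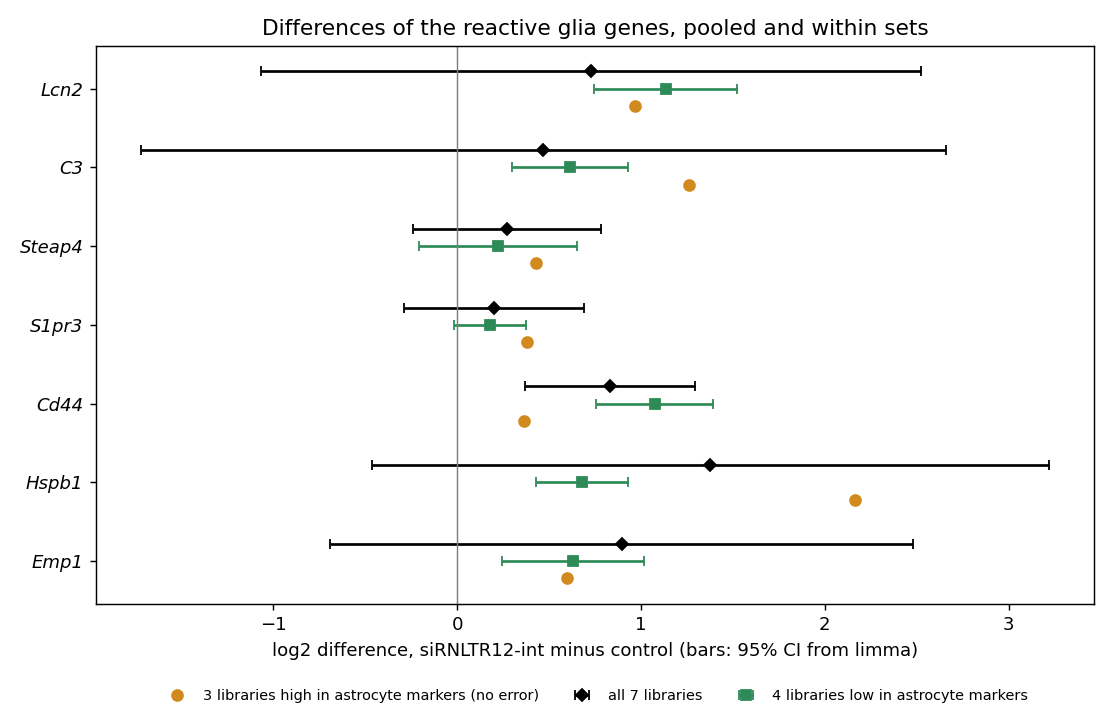
Log2 difference of each member, siRNLTR12-int minus control: diamonds from limma over all 7 libraries and squares from limma over the 4 libraries low in astrocyte markers, each with its 95% interval, and circles for the 3 libraries high in those markers, with no error. Every value lies above 0, and the intervals of Lcn2, C3, Cd44, Hspb1 and Emp1 in the 4 libraries exclude 0.

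**Figure D3:**
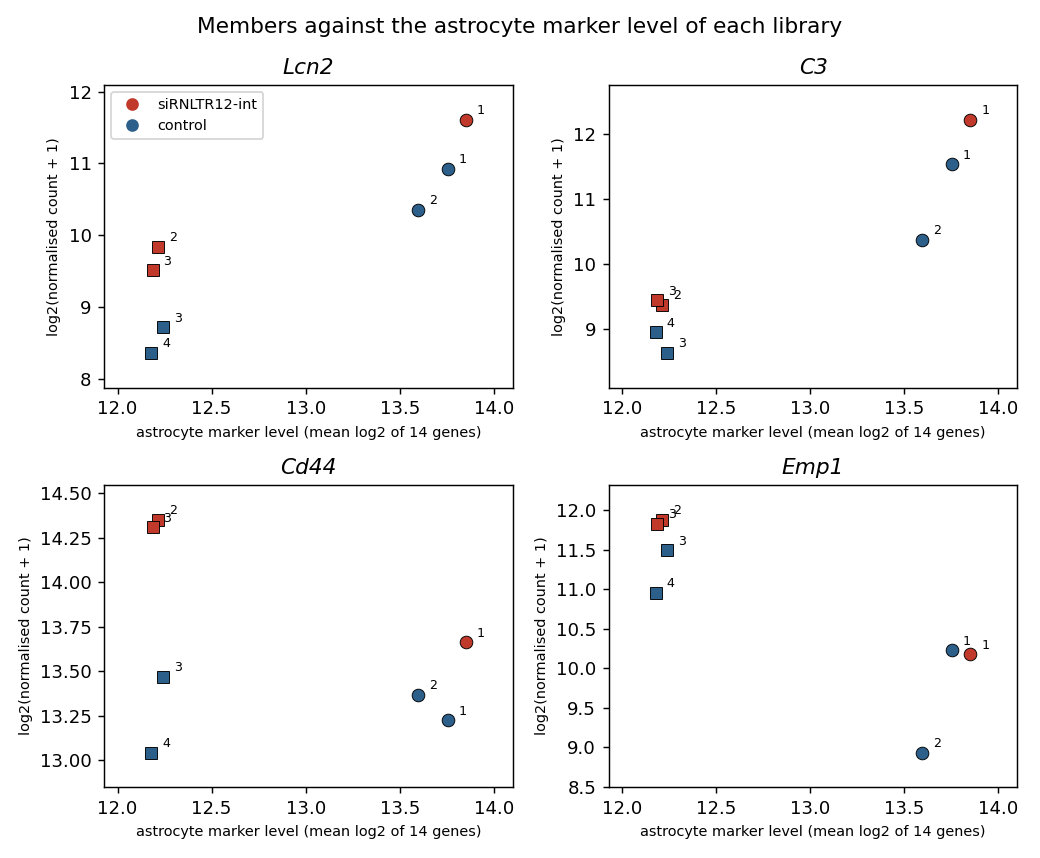
Log2(normalised count + 1) of 4 members against the mean log2 level of 14 astrocyte markers in each library, siRNLTR12-int in red and control in blue, with replicate numbers. Lcn2 and C3 are higher, and Emp1 lower, at the high marker level; in Cd44 the 2 siRNLTR12-int libraries at the low level stand above all others.

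Set against the controls low in astrocyte markers, the controls high in them had 2.10 and 2.17 more on the log2 scale for Lcn2 and C3, 0.27 for S1pr3, 0.12 for Steap4 and 0.04 for Cd44, and -1.23 and -1.65 for Hspb1 and Emp1. The siRNLTR12-int libraries gave 1.93, 2.81, 0.47, 0.32 and -0.67 for the first 5 of these genes in that order, and 0.26 and -1.68 for Hspb1 and Emp1. In Lcn2, C3 and Emp1 both of these values exceeded in size the differences between siRNAs within either set. In Cd44 they did not do so in the set low in astrocyte markers (1.07) but one did in the high set (0.37). The control value of Hspb1 (-1.23) rested on control replicate 2 (71.1 normalised counts). Control replicate 1 (787), also high in astrocyte markers, lay above control replicates 3 and 4 (569.7 and 545).

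Other genes of the reactive response were described by lists. Some lists shared genes, such as Clcf1 and Stat3 in the A2-type list and the list of inducers. Of 11 other pan-reactive genes 9 were positive (51% of all genes tested were), and the median log2 difference was 0.69. Timp1, a metalloproteinase inhibitor, had 2779, 2901 and 2701 normalised counts in siRNLTR12-int libraries, against 2628, 1176, 1881 and 1547 in controls (log2 difference 0.69, limma adjusted p = 0.712). The intermediate filament protein Synm differed by -0.60 (limma adjusted p = 0.661), with all siRNLTR12-int libraries below all controls. Of all genes tested 3.59% showed that order. At an unadjusted p under 0.05 there were 3 higher and 1 lower gene in this list, against 3.33% and 2.98% of all genes.

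Among 9 A1-type genes 5 were positive (median 0.26), and among 12 A2-type genes 11 were positive (median 0.49). The A1-type genes with the smallest p were Fkbp5, a glucocorticoid-induced co-chaperone (0.47), the proteasome subunit Psmb8 (-0.37) and the matrix protein Fbln5 (0.77), at limma adjusted p of 0.794, 0.875 and 0.965. In the A2-type list Ptgs2, the inducible cyclooxygenase, had 293, 296 and 217 normalised counts in siRNLTR12-int libraries, against 123, 20.3, 96.5 and 71.0 in controls, with no overlap (log2 difference 2.02, limma adjusted p = 0.662). The cytokine Clcf1 and the annexin partner S100a10 differed by 1.06 and 1.37 (limma adjusted p = 0.794 and 0.840). No gene of the 3 lists passed in the authors' deposited table.

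**Figure D4:**
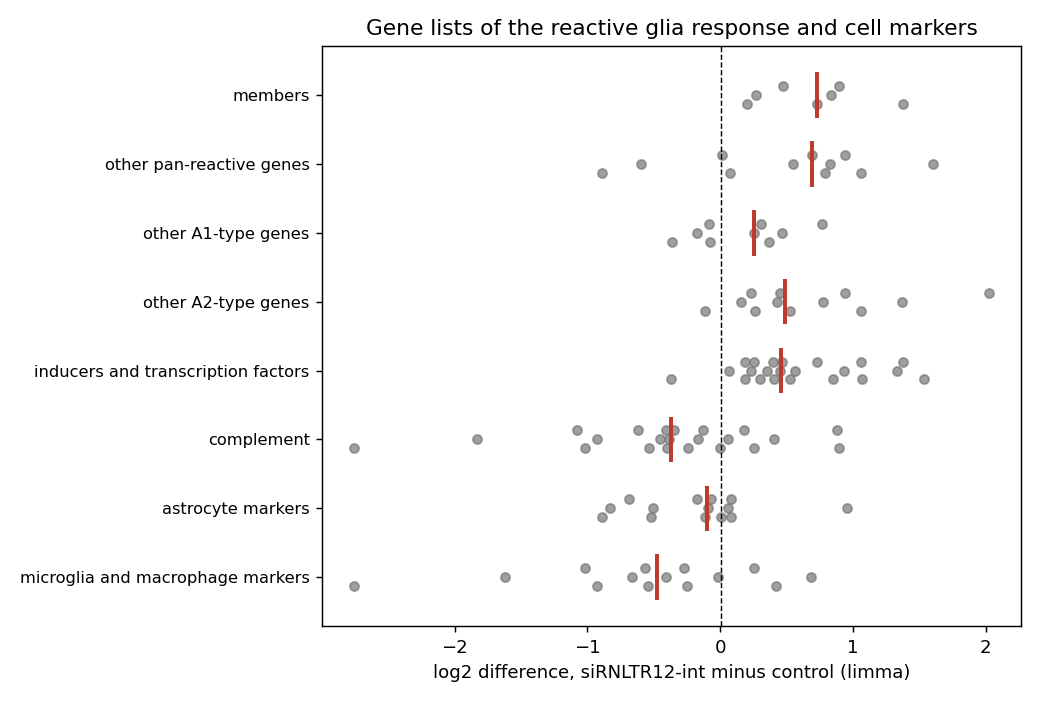
Log2 difference of each tested gene, siRNLTR12-int minus control (limma), by list, with a red line for the median of the list and a dashed line for the median over all genes tested, 0.01. The medians of the members (0.73) and of the pan-reactive genes (0.69) lie to the right. Those of the complement genes (-0.37), the microglia and macrophage markers (-0.48) and the astrocyte markers (-0.10) lie to the left. C1qa, C1qb and C1qc stand in both the complement and the microglia list.

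Of 22 tested inducers and transcription factors of the response 21 were positive (51% of all genes tested were), with a median of 0.46. At an unadjusted limma p under 0.05, 7 were higher (3.33% of all genes tested). Lif, a cytokine that signals through gp130, had 75.8, 133 and 126 normalised counts in siRNLTR12-int libraries, against 52.6, 25.4, 39.6 and 33.7 in controls, and was the 1 gene of the list to rise in the authors' deposited table (log2 1.56, adjusted p = 0.00867). Socs3, the feedback inhibitor of Stat3 signalling, and the cytokine Il1b did not overlap between groups either, with log2 differences of 0.93 and 1.34 (limma adjusted p = 0.662 and 0.661). Of all genes tested 4.09% had all siRNLTR12-int libraries above all controls.

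Of 22 tested rows of complement genes other than C3, 6 were positive and 16 negative, with a median of -0.37, and none passed the unadjusted p of 0.05 with limma. The median was -0.18 in the 4 libraries low in astrocyte markers. C1qc, a microglial subunit of C1q, had 95.9, 3.80 and 3.22 normalised counts in siRNLTR12-int libraries, against 379, 212, 20.7 and 28.4 in controls (log2 difference -2.76, limma adjusted p = 0.858). The regulator Cd46 and the properdin gene Cfp differed by 0.41 and -0.41 (limma adjusted p = 0.883 and 0.920). C3ar1, the receptor of the C3a peptide, had 332, 58.2 and 72.5 normalised counts after the siRNA and 404, 189, 74.1 and 124 in controls. C4a and Cfb each stood in 2 rows, which may split their reads.

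Among partners and relatives of the members, 35 were tested, 22 with a positive difference (median 0.24). At an unadjusted limma p under 0.05, 7 were higher and 1 was lower, against 3.33% and 2.98% of all genes tested. Hspa1b, an inducible chaperone, rose in the authors' deposited table (log2 0.91, adjusted p = 0.0183). As for Cd44, the change was too small for that table to mark the gene as regulated. Hspa1b had 171, 244 and 176 normalised counts in siRNLTR12-int libraries, against 122, 90.0, 102 and 106 in controls. Its near-identical copy Hspa1a makes this value uncertain. Hspb6, another small heat shock protein, did not overlap between groups (log2 difference 0.41, limma adjusted p = 0.661). S1pr5, the sphingosine 1-phosphate receptor of oligodendrocytes, fell in the authors' deposited table (log2 -2.15, adjusted p = 0.0248), with 108, 123 and 154 normalised counts after the siRNA and 343, 1281, 278 and 373 in controls. Slc22a17, the lipocalin 2 receptor, differed by -0.18 and Sphk1, which makes sphingosine 1-phosphate, by 0.16 (limma adjusted p = 0.956 and 0.994).

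Markers of other cell types were listed in the same way. Of 14 astrocyte markers 5 were positive (median -0.10), and their sum was 175431 to 754031 normalised counts in siRNLTR12-int libraries and 181031 to 684548 in controls. Fgfr3, Gjb6 and Ntsr2 had the smallest p of that list, at limma adjusted p of 0.861, 0.905 and 0.956. Gfap, the astrocyte filament, had 306397, 19440.4 and 20478 normalised counts in siRNLTR12-int libraries, against 262590.5, 224537, 27204 and 44392 in controls. Of 14 microglia and macrophage markers 3 were positive (median -0.48), and the sum was 3237 to 23735 after the siRNA and 2495 to 22247 in controls. Aif1 had 160, 24.1 and 32.2 normalised counts after the siRNA and 140, 64.6, 41.4 and 53.2 in controls, and Cx3cr1 and P2ry12 differed by -1.62 and 0.26 (limma adjusted p = 0.920 and 0.956). No astrocyte or microglia marker was at 0 in every library. The part of these cells in the differences of Lcn2 and C3 was not tested beyond the values within the sets and with the covariates.

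Of 14 oligodendrocyte lineage markers 10 were negative (median -1.56), 7 fell in the authors' deposited table, and Mbp, Cldn11 and Mobp had the smallest limma p (log2 differences -2.63, -2.19 and -3.38). Of 7 tested vascular and fibroblast markers 4 were positive (median 0.53), with Acta2, Tek and Pdgfrb at the smallest p, while Cldn5 was at 0 in every library. Of 11 tested neuron markers 6 were positive (median 0.16), with Elavl3, Map2 and Gad1 at the smallest p.

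The pattern of each member over the 7 libraries was compared with that of 12229 named genes whose mean reached 100 normalised counts. The closest genes by Pearson r of log2(normalised count + 1) were Rap1b (0.998) and Pitpnm1 (0.997) for Lcn2, Unc93b1 (0.998) and Sp110 (0.997) for C3, Otud4 (0.991) and Ccdc94 (0.981) for Cd44, and Inafm1 (0.991) and Col5a1 (0.987) for Hspb1. For Emp1 they were Plekha2 (0.999) and Nell2 (0.996), for S1pr3 Akr1b10 (0.999) and Runx1 (0.997), and for Steap4 Rnf144b (0.992) and Rbm24 (0.984). The libraries fall into 2 sets and share depth and cell mixture within a library, so high values of r are common among so many genes and are given as a description. The lowest value of Inafm1 and of Col5a1, 72.6 and 712 normalised counts, was in control replicate 2, as for Hspb1.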

How the data were processed

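RNA was sequenced from 7 samples of rat oligodendrocyte progenitor cells (3 siRNLTR12-int, 4 control) after ribosomal RNA depletion and directional paired-end library preparation (RNA integrity numbers 9 to 10), per the labels' protocols. Salmon, DESeq2 and the build Rnor_6.0 stand in the submitters' processing notes, without versions. The authors deposited normalised gene counts, a signal divided by a size factor for each library. Their comparison table holds, per the file headers, log2 fold changes with standard errors, a test score, and each p-value before and after adjustment. Whole reads were recovered for 100% of values in each library (tolerance 0.01). Rounded estimates would look alike.

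Log2(normalised count + 1) was fitted with limma 3.58.1 (empirical Bayes with trend, two-sided) over genes with a mean of at least 10. The fits were tested on simulated data with larger changes than those of the members and no split by astrocyte markers. That test therefore does not show how they perform on these libraries. Tried besides were pseudocounts of 0.25 and 8, a minimum mean of 50 or none, rescaling by TMM or the upper quartile, no trend, array weights, a replicate block, marker levels as covariates, the 4 libraries low in astrocyte markers, each library left out, and edgeR 4.0.16 and DESeq2 1.42.0 on recovered reads. A block for the astrocyte split and the 3 libraries high in those markers were added later. Genes named beyond the members are the 3 smallest limma p of each list and 5 partner or marker genes; 1 gene this rule names is not reported here. The members, lists and settings were chosen with earlier results of these data known. Promoter letters come from RefSeq (GRCr8), matched by symbol for all 8 members.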

Additional observations from a re-analysis of the deposited data

Results flagged for a closer look

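Among 44 genes whose 4 control libraries were examined on the log2(normalised count + 1) scale, 4 had a library farther from the other 3 than Dixon's 95% critical value allows, and chance gives about 1 in 20. Hspb1 had 71.1 normalised counts in control replicate 2 and 545 to 787 in control replicates 1, 3 and 4. Cd46 and Acta2 were also lowest in control replicate 2, with 45.0 and 15.2 normalised counts. Il1b was highest in control replicate 1, at 67.9 normalised counts, where control replicates 2 to 4 had 26.1 to 30.2.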

How the results depend on the processing

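Past the adjusted threshold there were 0 members with limma, 1 with array weights and 1 with DESeq2 on the recovered reads (Cd44 in both). The DESeq2 values of the members equalled those in the authors' deposited table, so that fit is no separate test. In the 4 libraries with low astrocyte markers 4 members passed. Over all genes 839 passed with array weights, 141 with DESeq2, 3 with the microglia level as a covariate, 1415 in those 4 libraries and 0 to 2 when each library was left out. Members without overlap, all higher after the siRNA, numbered 2 over all 7 libraries, an order found in 4.09% of all genes tested. They numbered 6 in either set of libraries defined by astrocyte markers. The shares of all genes tested were 31.2% in the low set and 33.3% in the high set. The number of such members was 2 to 3 when each library was left out. Leaving out each library, C3 ranged from -0.47 (without siRNLTR12-int replicate 1) to 1.02 on the log2 scale; the cause was not tested. The other members kept a positive difference under all 22 alternatives, Lcn2 between 0.08 and 1.17, Emp1 between 0.40 and 1.45 and Hspb1 between 0.60 and 1.75. Changing the mean filter or leaving out the trend cannot alter the estimate of a gene, so those alternatives are no test of its sign. Deviations of same-numbered siRNLTR12-int and control replicates 1, 2 and 3 correlated at 0.746, -0.191 and 0.632. siRNLTR12-int replicate 2 correlated best with control replicate 3 (0.566). The signs of these values followed the astrocyte marker split, so they cannot settle whether same-numbered replicates pair. With the replicate block 0 members passed and Cd44 differed by 0.75 (limma adjusted p = 0.576). Control replicate 4 has no siRNLTR12-int library of its number, so the block gave the same differences as leaving that library out. The thinnest value of a member was 98 reads, Hspb1 in control replicate 2.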
